A study of Mus musculus with 10 samples.

Results

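The genes of intestinal calcium and phosphate absorption, 8 in number, were followed through RNA-seq of proximal intestine from mice with and without the metal transporter Zip14 (*Slc39a14*). They were *Trpv6*, *S100g*, *Atp2b1*, *Vdr*, *Cyp24a1*, *Slc34a2*, *Slc20a1* and *Slc20a2*, taken by symbol from the 35275 Ensembl gene IDs of the count tables, and each matched 1 ID, so that no gene was lost or doubled. The libraries came from 5 WT mice and 5 KO mice, each labelled 8 to 10 weeks, with 1 library per mouse, whereas the study's methods give a wider age range. Those methods describe the KO mice as whole-body *Zip14* knockouts born, like their WT controls of the same strain, from matings of heterozygous parents, whereas the series title names a deletion restricted to enterocytes. The labels give the genotype only as KO, and that word is used here for the group.

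Calcium leaves the gut lumen by 2 routes. In the transcellular route the apical channel TRPV6 admits calcium, the small binding protein calbindin-D9k (*S100g*) carries it across the enterocyte, and the plasma membrane calcium pump PMCA1 (*Atp2b1*) expels it at the basolateral side, while the paracellular route runs through claudin pores. The vitamin D receptor (*Vdr*) is a transcription factor that, with its ligand calcitriol and an RXR partner, raises the transcription of *Trpv6*, *S100g* and *Cyp24a1*, the last of which encodes the enzyme that breaks calcitriol down. Phosphate enters enterocytes through the apical cotransporter NaPi-IIb (*Slc34a2*), and through PiT-1 (*Slc20a1*) and PiT-2 (*Slc20a2*), which serve phosphate supply in most cell types. These genes are used unequally along the gut: in mice, transcellular calcium uptake is known mainly from the duodenum and from the large bowel, and NaPi-IIb is known to be most abundant in the ileum.

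The RNA of the groups also differed in its regional markers, and this stands beside every result that follows. All libraries were labelled proximal intestine. The summed level of 10 genes typical of the proximal small intestine was 9278 to 17876 CPM (read counts scaled by TMM and library size, written as CPM throughout) in WT libraries and 101 to 1530 CPM in KO libraries. Of its 9 tested genes 6 were lower in KO. Lactase (*Lct*) was at 3363 to 3783 CPM in WT and at 702, 281, 3.08, 2.81 and 0.315 CPM in KO replicates 1 to 5, although its test was not passed (adjusted p = 0.0632, edgeR). The transcription factor gene *Gata4*, which is expressed in duodenum and jejunum and not in distal ileum, was at 160 to 217 CPM in WT and at 59.4, 13.8, 5.24, 0.572 and 1.47 CPM in KO replicates 1 to 5. An 8-gene ileum list summed to 1393 to 1945 CPM in WT and to 4737 to 12034 CPM in KO, with 7 of 8 genes higher in KO. The ileal bile acid binding protein gene *Fabp6* was at 0.0638 to 1.74 CPM in WT and at 2307 to 9058 CPM in KO, and the ileal bile acid transporter gene *Slc10a2* was at 0.156 to 0.702 CPM in WT and at 90.3 to 244 CPM in KO. Not called were *Cybrd1* (log2 fold change −0.32, adjusted p = 0.401, edgeR) and *Slc40a1* (0.66, adjusted p = 0.236) of the proximal list. Nor was *Mep1b* of the ileum list (−0.28, adjusted p = 0.346). Most proximal and ileal markers of the KO libraries therefore went against their label.

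Other lists moved as well. All 10 smooth muscle genes were higher in KO, with sums of 1220 to 2182 CPM in WT and 3276 to 9979 CPM in KO, the highest being KO replicate 4. Epithelial genes summed to 13459 to 15306 CPM in WT and 14833 to 21382 CPM in KO, with 6 of 10 higher. A 6-gene colon list summed to 1600 CPM in KO replicate 2 and to 129 to 429 CPM in the other libraries, and its marker *Car1*, listed at 0 in every WT library, reached 1172 CPM in that library and at most 11.3 CPM elsewhere. Genotype and gut region cannot be told apart in these samples, since neither the proximal nor the ileum sums of the groups overlap. In tissue RNA, fewer cells of a type and less RNA per cell cannot be told apart either. Library totals were 16729787 to 20819678 counts. The targeted *Slc39a14* fell from 260 ± 62.5 CPM in WT to 102 ± 32.9 CPM in KO (SD, n = 5 each), with KO replicate 1 highest of the KO libraries at 160 CPM and the other 4 at 78.5 to 93.8 CPM.

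Start-site sequences are shown for 3 members, since *S100g* and *Trpv6* are textbook vitamin D targets and *Slc34a2* carried the largest tested difference. They come from RefSeq (GRCm38.p6) and run from 250 bases before to 50 bases after an annotated start, 5′ to 3′ on the gene's strand. RefSeq promoters were matched for 6 of the 8 members, all but *Cyp24a1* and *Slc20a2*. Capitals mark the half-site AGGTCA, bound by many nuclear receptors including VDR with RXR, on either strand (read TGACCT where it lies on the other), and the TATA box TATAAA.

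*S100g*, chrX:162964550-162964849, minus strand: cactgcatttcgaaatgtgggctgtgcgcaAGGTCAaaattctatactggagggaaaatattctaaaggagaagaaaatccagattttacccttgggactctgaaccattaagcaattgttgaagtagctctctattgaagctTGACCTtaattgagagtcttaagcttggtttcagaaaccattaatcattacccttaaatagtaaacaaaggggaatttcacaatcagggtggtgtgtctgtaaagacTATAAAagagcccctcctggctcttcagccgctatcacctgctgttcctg

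*Trpv6*, chr6:41636356-41636655, minus strand: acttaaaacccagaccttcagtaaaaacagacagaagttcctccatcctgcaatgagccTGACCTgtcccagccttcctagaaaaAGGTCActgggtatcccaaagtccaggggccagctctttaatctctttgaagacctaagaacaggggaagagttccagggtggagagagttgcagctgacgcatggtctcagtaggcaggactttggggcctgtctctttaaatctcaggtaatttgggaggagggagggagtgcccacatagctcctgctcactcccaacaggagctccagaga

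*Slc34a2*, chr5:53049103-53049402, plus strand: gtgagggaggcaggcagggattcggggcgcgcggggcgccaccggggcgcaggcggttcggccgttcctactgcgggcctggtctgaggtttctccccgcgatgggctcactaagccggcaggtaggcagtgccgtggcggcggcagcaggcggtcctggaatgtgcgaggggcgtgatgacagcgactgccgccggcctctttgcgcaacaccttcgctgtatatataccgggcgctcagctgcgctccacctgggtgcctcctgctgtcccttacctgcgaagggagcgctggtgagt

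The *S100g* and *Trpv6* windows each held 2 half-sites, 1 on each strand, and the *Slc34a2* window held none. In *S100g* they began 220 and 107 bases before the start, and in *Trpv6* 191 and 165 bases before it. Of 32851 mouse promoters of this length 16.3% held at least 1 half-site and 1.81% held 2 or more. None lay in the windows of *Vdr* or *Atp2b1*, while each of the 2 *Slc20a1* windows held 1. A TATA box, found in 13.6% of promoters, was present in the *S100g* window, where it began at the annotated start itself, and in the upstream window of *Slc20a1*. These are matches of letters only.

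Of the 8 genes 6 passed the filter on low counts and were tested, and *Trpv6* and *Cyp24a1* did not. *Slc34a2* and *Atp2b1* were higher in KO, *Vdr* was lower, and *S100g*, *Slc20a1* and *Slc20a2* were not called. Across all 15610 genes tested, 29.9% were called at an adjusted p under 0.05 (edgeR's quasi-likelihood test with Benjamini-Hochberg adjustment), 16.0% as higher and 13.9% as lower in KO, so a call is common in this comparison and 3 of 6 is too few to set apart from that share. The 5 KO values lay wholly above or below the 5 WT values for the same 3 genes, against 21.1% of all genes tested. The median log2 fold change was 0.39 over the 6 tested members and 0.03 over all genes tested.

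**Figure D1:**
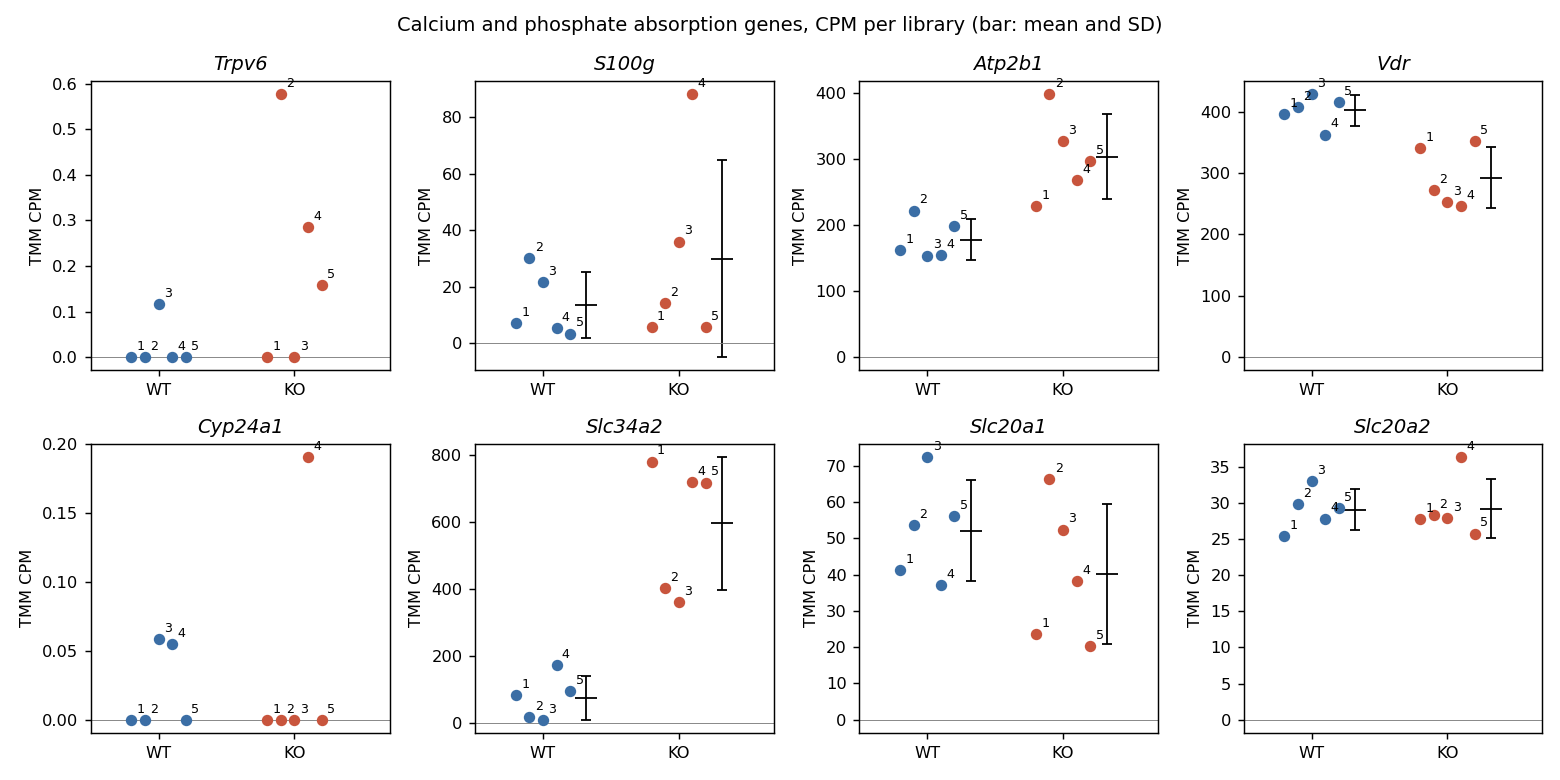
TMM-scaled CPM of the 8 genes in each library, WT in blue and KO in red, with replicate numbers beside the points and, for the 6 tested genes, a bar for the mean and SD (n = 5). All KO points lie above WT for *Slc34a2* and *Atp2b1* and below WT for *Vdr*, and the groups overlap for the other 5 genes.

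The calcium entry transcript was close to the limit of detection. *Trpv6* (GRCm38 chromosome 6, 41620624 to 41636405), the apical channel gene, had 2 reads among the WT libraries, both in replicate 3. The KO libraries had 20 reads, with 11 in replicate 2, 6 in replicate 4, 3 in replicate 5 and 0 in replicates 1 and 3. The highest library, KO replicate 2 at 0.577 CPM, was the one with the high colon marker *Car1*, and KO replicate 4 followed at 0.286 CPM. A library at 0 allows up to 3 reads, which came to 0.156 to 0.191 CPM in the 6 libraries at 0. The pooled ratio of KO to WT was 9.23 with a 95% counting interval of 2.24 to 81.4, which leaves out the spread between mice. With the mice as units the groups overlapped (exact permutation test on log2 CPM, two-sided p = 0.167, n = 5 each), and DESeq2 without a prior filter gave an adjusted p of 0.169.

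*S100g* (chromosome X, 162961992 to 162964599), the cytosolic calcium carrier, was the most variable tested gene of the set in KO. Its levels were 7.06, 30.05, 21.8, 5.22 and 3.42 CPM in WT replicates 1 to 5 and 5.58, 14.1, 36.0, 88.2 and 5.77 CPM in KO replicates 1 to 5. The groups overlapped, since 3 of the KO libraries lay within the WT range and only KO replicates 3 and 4 lay above it. Means were 13.5 ± 11.8 CPM in WT and 29.9 ± 34.8 CPM in KO (SD, n = 5 each). The log2 fold change of 1.15 had a standard error of 0.83 and a 95% interval of −0.66 to 2.97, and was not called (adjusted p = 0.304, edgeR). Leaving out KO replicate 4 lowered it to 0.19, and with any other library left out it was between 0.90 and 1.67. *S100g* lies within *Ctps2*, which is read from the other strand, but no exons overlap.

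The transcript of the calcium exit pump differed between the groups. *Atp2b1* (chromosome 10, 98914406 to 99026143), the basolateral pump gene, was at 162, 222, 153, 154 and 198 CPM in WT replicates 1 to 5 and at 228, 398, 327, 268 and 297 CPM in KO replicates 1 to 5. Every KO library was above every WT library, although KO replicate 1 at 228 CPM and WT replicate 2 at 222 CPM were close. The mean rose from 178 ± 30.6 to 304 ± 64.1 CPM (SD, n = 5 each), which is 0.77 on the log2 scale with a standard error of 0.16 (adjusted p = 0.00641, edgeR). The exact permutation test gave p = 0.00794, the smallest that 5 against 5 allows. Scaled to the epithelium list instead of by TMM, the log2 fold change was 0.42 and no longer called (adjusted p = 0.0945), in a scaling that lowered the median of all genes by 0.36 on the log2 scale. Relative to the median of all genes the difference was 0.75 under both scalings. Subtracting that median takes out the shift between scalings, so this likeness is no check on the lost call.

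*Vdr* (chromosome 15, 97854425 to 97910630), the calcitriol receptor gene, was the steadiest of the called genes. WT replicates 1 to 5 were at 396, 407, 428, 362 and 416 CPM, and KO replicates 1 to 5 at 341, 272, 252, 246 and 352 CPM. All KO libraries were below all WT libraries, with KO replicates 1 and 5 nearest to WT. The mean fell from 402 ± 25.1 to 292 ± 50.2 CPM (SD, n = 5 each), which is −0.46 on the log2 scale with a standard error of 0.13 (adjusted p = 0.0194, edgeR, and exact permutation p = 0.00794). Scaled to the epithelium list it was −0.84 (adjusted p = 0.000580), and relative to the median of all genes −0.48 by TMM and −0.51 in that scaling. Subtracting the median takes out most of the shift between scalings, so the last values were bound to be close. WT values spanned 1.18-fold from lowest to highest, against 8.79-fold for *S100g*.

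*Cyp24a1* (chromosome 2, 170482708 to 170497145), the calcitriol-degrading enzyme and a sensitive vitamin D target, was barely detected. WT replicates 3 and 4 had 1 read each and KO replicate 4 had 4 reads, while the other 7 libraries were at 0. The pooled ratio of KO to WT was 1.85 with a 95% counting interval of 0.265 to 20.4, and a difference was not detectable at this depth. Part of its exons lies opposite exons of *Pfdn4*, so that even these reads are uncertain. Levels of *Vdr* and of the pump gene were far above those of *Trpv6* and *Cyp24a1* in every library.

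A phosphate entry transcript showed the largest difference among the 6 tested genes. *Slc34a2* (chromosome 5, 53038081 to 53071664), which encodes NaPi-IIb, was at 83.3, 19.5, 11.02, 173 and 96.7 CPM in WT replicates 1 to 5 and at 781, 402, 362, 720 and 718 CPM in KO replicates 1 to 5. All KO libraries were above all WT libraries, and the KO libraries fell into a higher set of 3 and a lower pair, replicates 2 and 3. Means were 76.7 ± 65.7 CPM in WT and 597 ± 198 CPM in KO (SD, n = 5 each), a ratio of 7.79. The log2 fold change was 2.96 with a standard error of 0.65 and a 95% interval of 1.54 to 4.38 (adjusted p = 0.00745, edgeR, and exact permutation p = 0.00794). WT libraries themselves spanned 15.7-fold, more than the 2.16-fold of the KO libraries.

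Inside WT *Slc34a2* ran against the proximal sum too. WT replicates 2 and 3, with the highest proximal sums of 17876 and 17259 CPM, had the lowest *Slc34a2* and the highest *S100g*. WT replicates 4 and 5, with the lowest proximal sums of 9278 and 10459 CPM, had the highest *Slc34a2* and the lowest *S100g*. WT replicate 1 lay between them on all 3 measures. *Lct* went the other way, at 3363 and 3367 CPM in WT replicates 2 and 3 and 3641 and 3783 CPM in replicates 4 and 5. *Gata4* was higher in the first pair, at 201 and 200 CPM against 166 and 160 CPM. In KO the proximal sum gave no such order, since *Slc34a2* was highest in KO replicate 1, whose proximal sum of 1530 CPM was the highest of that group. *S100g* was lowest in that library, at 5.58 CPM. These are 5 libraries per group and the pattern was not tested.

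**Figure D2:**
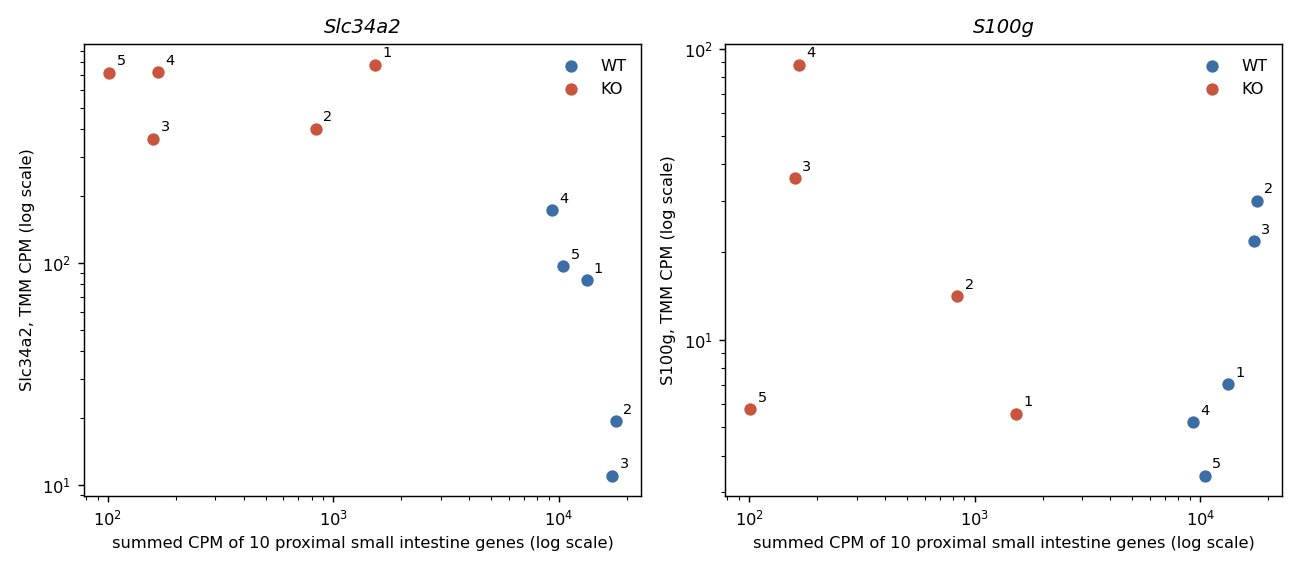
*Slc34a2* (left) and *S100g* (right) in CPM against the summed CPM of 10 proximal small intestine genes, both axes on a log scale, 1 point per library with its replicate number, WT blue and KO red. No KO library reaches the proximal sums of WT, and within WT the 2 libraries with the highest sums have the lowest *Slc34a2* and the highest *S100g*.

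Neither PiT gene was called. *Slc20a1* (chromosome 2, 129198764 to 129211616), encoding PiT-1, was at 41.2, 53.5, 72.4, 37.1 and 56.0 CPM in WT replicates 1 to 5 and at 23.6, 66.4, 52.4, 38.1 and 20.4 CPM in KO replicates 1 to 5. KO replicates 1 and 5 lay below all WT libraries and the other 3 within their range. The log2 fold change was −0.37 with a standard error of 0.31 and a 95% interval of −1.06 to 0.31 (adjusted p = 0.383, edgeR). It was −0.64 without KO replicate 2, and −0.21, −0.23 and −0.24 without KO replicate 5, WT replicate 3 and KO replicate 1, and was called in none of these fits. Its exons overlap the antisense gene *9830144P21Rik*, which held 2.15 CPM in WT and 1.55 CPM in KO on average.

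*Slc20a2* (chromosome 8, 22476788 to 22569612), encoding PiT-2, averaged 29.1 ± 2.81 CPM in WT and 29.2 ± 4.12 CPM in KO (SD, n = 5 each). WT libraries ran from 25.4 to 33.0 CPM and KO libraries from 25.8 to 36.4 CPM. The log2 fold change was 0.01 with a 95% interval of −0.24 to 0.25 (adjusted p = 0.967, edgeR). Relative to the median of all genes it was −0.02 by TMM, RLE and library size only and −0.01 when scaled to the epithelium list. These values were bound to be close, since subtracting the median takes out the shift between scalings. The interval bounds any difference at well under that of *Slc34a2*. Exons of *Smim19* lie opposite part of the gene.

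Divided by exon length, the make-up of the phosphate transporter transcripts differed from library to library. *Slc34a2* supplied 59.2%, 21.2%, 10.7%, 75.6% and 56.7% of the summed CPM per kilobase of the 3 genes in WT replicates 1 to 5. In KO it supplied 94.7%, 83.0%, 83.9%, 91.9% and 94.8% in replicates 1 to 5, all above WT. In WT replicates 2 and 3 *Slc20a1* was the leading transporter at 52.5% and 63.3%. The summed level was 18.3 to 45.6 CPM per kilobase in WT and 86.2 to 164.5 CPM per kilobase in KO.

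**Figure D3:**
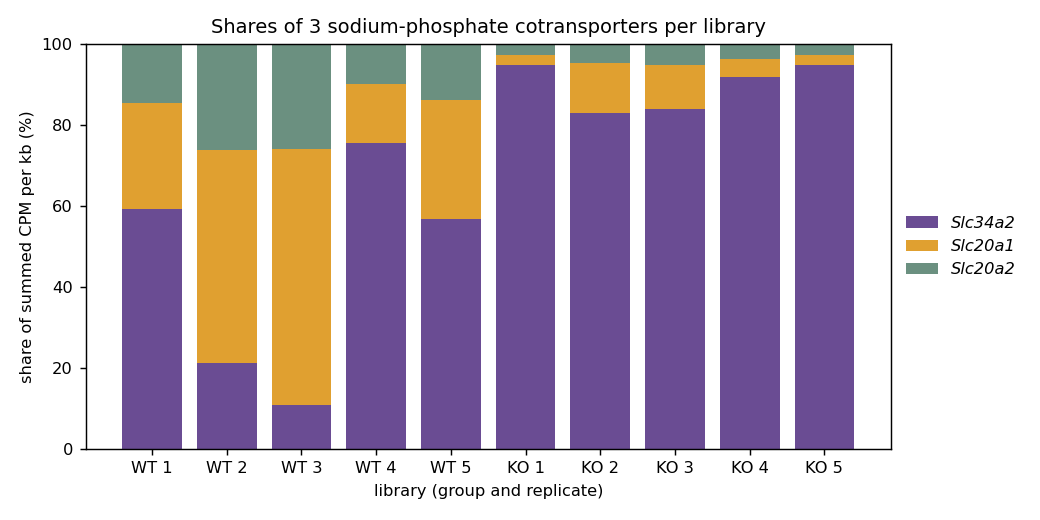
Share of *Slc34a2*, *Slc20a1* and *Slc20a2* in their summed CPM per kilobase of exon, as stacked bars for each library. *Slc34a2* takes 10.7% to 75.6% in WT and 83.0% to 94.8% in KO.

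Levels per exon length also set the order of the 8 genes within each group. In WT *Vdr* led at 71.1 CPM per kilobase, and no other member reached its range. *S100g* at 28.1, *Slc34a2* at 15.3, *Atp2b1* at 11.7 and *Slc20a1* at 9.33 CPM per kilobase came next, and each overlapped the following one in range. *Slc20a2* followed at 4.68 CPM per kilobase, below all values of *Slc20a1*, and *Cyp24a1* and *Trpv6* were last. In KO *Slc34a2* led at 119 CPM per kilobase, followed by *S100g* at 62.3 and *Vdr* at 51.8 CPM per kilobase, with ranges that overlapped from each to the next. *Slc34a2* exceeded *S100g* in 3 of the 5 KO libraries. The place of *S100g* rested on KO replicate 4 at 184 CPM per kilobase, since its mean was 32.01 CPM per kilobase without that library, and it exceeded *Vdr* in 2 of the 5 KO libraries. In WT it exceeded *Slc34a2* in 2 of 5 libraries. *Atp2b1* at 19.9, *Slc20a1* at 7.20 and *Slc20a2* at 4.70 CPM per kilobase came after them, the last pair with overlapping ranges, and *Trpv6* and *Cyp24a1* were again last. Among 15538 tested genes with a known exon length, the mean level of *Slc34a2* stood at percentile 78.8 in WT and 97.3 in KO, and that of *Vdr* at percentile 94.9 in WT and 93.7 in KO.

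Other genes of these pathways were taken from fixed lists. Of 12 further calcium transport genes 9 were tested, 5 were higher in KO, 1 was lower and 3 were not called, where 16.0% of all genes tested were higher and 13.9% lower, with a median log2 fold change of 0.92 against 0.03 over all genes tested. The claudins changed in both directions. *Cldn2*, whose protein forms a cation pore, was at 50.2 to 60.6 CPM in WT and 134 to 310 CPM in KO (log2 fold change 1.78, SE 0.22, adjusted p = 0.000500, edgeR). *Cldn15*, which forms another cation pore and is typical of the small intestinal lining, was at 574 to 709 CPM in WT and 231 to 369 CPM in KO (log2 fold change −1.19, SE 0.14, adjusted p = 0.000368). *Cldn12* was not called, at 37.2 ± 1.596 CPM in WT and 35.8 ± 3.61 CPM in KO, and was called lower when scaled to the epithelium list (−0.41, adjusted p = 0.0110).

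The further calcium pumps and exchangers were higher where they were called. The plasma membrane pump gene *Atp2b4* was at 46.2 to 72.4 CPM in WT and 72.6 to 185 CPM in KO (log2 fold change 0.92, adjusted p = 0.0150, edgeR). *Atp2b2* (1.605, adjusted p = 0.0265), the sodium-calcium exchanger gene *Slc8a1* (0.90, adjusted p = 0.0103) and the calcium-binding calretinin gene *Calb2* (1.36, adjusted p = 0.00499) had mean levels under 12 CPM in both groups. The groups overlapped for *Atp2b2* (exact permutation p = 0.0556), with KO replicates 1 and 5 at 1.18 and 1.36 CPM against 0.70 to 1.87 CPM in WT. *Atp2b3* and the channel gene *Cacna1d* were not called, and *Trpv5*, the renal relative of *Trpv6*, had 0 reads in all libraries. KO replicate 4, which had the highest smooth muscle sum of 9979 CPM, was highest for *Atp2b4* at 185 CPM and for *Calb2* at 13.2 CPM. *Slc8a1* was instead highest in KO replicate 2 at 16.8 CPM and *Atp2b2* in KO replicate 3 at 5.56 CPM. With the smooth muscle list as a covariate none of the genes of the 3 pathway lists was called (edgeR, 12 of all genes called and 4 of the list genes at an unadjusted p under 0.05). The smooth muscle sums of the groups did not overlap, so this fit holds little that separates genotype from the list. In that fit the log2 fold change was −0.21 for *Atp2b4*, 0.38 for *Calb2*, 0.71 for *Slc8a1*, 1.07 for *Atp2b2* and 1.59 for *Cldn2*, and differences among these genes were not tested. Scaled to the epithelium list, *Atp2b4* (0.61, adjusted p = 0.0926) and *Slc8a1* (0.57, adjusted p = 0.0920) were not called.

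Of 11 further vitamin D genes 8 were tested, 4 were lower in KO, none was higher and 4 were not called, where 29.9% of all genes tested were called and 13.9% were lower (median log2 fold change −0.41). *Cyp27a1* and *Cyp2r1*, which encode hydroxylases that activate vitamin D, had log2 fold changes of −1.19 (adjusted p = 0.00319, edgeR) and −0.82 (adjusted p = 0.0332). *Cyp27a1* was at 56.6 to 80.8 CPM in WT and 22.1 to 43.4 CPM in KO, while *Cyp2r1* was at 2.42 CPM or less in all libraries and its groups overlapped. The call of *Cyp2r1* was lost by library size only (adjusted p = 0.0628), without a filter (0.0559) and without KO replicates 1 and 2 (0.102). *Cyp3a11*, a drug and sterol hydroxylase that can also inactivate calcitriol, was at 396 to 1774 CPM in WT and 6.30 to 132 CPM in KO (log2 fold change −4.57, SE 0.85, adjusted p = 0.00343). It is one of the 10 proximal small intestine genes as well. *Med1*, a coactivator subunit that binds VDR, was at 86.3 to 96.5 CPM in WT and 49.7 to 77.6 CPM in KO (log2 fold change −0.56, adjusted p = 0.00472). The RXR partner genes *Rxra* and *Rxrb* and the coactivator genes *Ncoa1* and *Ncoa3* were not called, and the 95% interval for *Rxra* ran from −0.26 to 0.12. Scaled to the epithelium list, *Rxra* (−0.43, adjusted p = 0.00767), *Ncoa1* (−0.62, adjusted p = 0.00323) and *Ncoa3* (−0.37, adjusted p = 0.0230) were called lower, in the scaling that lowered the median of all genes, and *Ncoa1* also without KO replicates 1 and 2 (−0.45, adjusted p = 0.0121). The third RXR gene, *Rxrg*, did not pass the filter, with 12 reads in WT and 58 in KO and 4 of 5 KO libraries above all WT libraries. It was called higher in KO by DESeq2 (adjusted p = 0.0149) and by edgeR without a filter (adjusted p = 0.0407).

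Of 10 further phosphate genes 8 were tested, 3 were lower in KO, none was higher and 5 were not called (median log2 fold change −0.39). A count of 3 in 8 lies near the 29.9% of all genes tested that were called. *Slc9a3*, which encodes the apical sodium-proton exchanger NHE3, was at 74.2 to 138 CPM in WT and at 24.4, 16.1, 5.83, 1.001 and 5.04 CPM in KO replicates 1 to 5 (log2 fold change −3.22, SE 0.63, adjusted p = 0.00427, edgeR). NHE3 is known to affect phosphate uptake indirectly, through the pH at cell junctions. *Xpr1*, the only known phosphate exporter of animal cells, was at 106 to 121 CPM in WT and 57.9 to 92.8 CPM in KO (log2 fold change −0.62, SE 0.13, adjusted p = 0.00517). *Ank*, which encodes a pyrophosphate regulator, was just called (−0.38, adjusted p = 0.0476), and its groups overlapped. *Slc34a1*, another NaPi-II gene, did not pass the filter, with 15 reads in WT and 38 in KO. Its KO libraries were all above its WT libraries (exact permutation p = 0.00794), and DESeq2 did not call it (adjusted p = 0.146). *Slc34a3*, the third NaPi-II gene, was at 3.30 CPM or less in every library and was not called. The scaffold genes *Slc9a3r1* and *Pdzk1*, the fibroblast growth factor receptor gene *Fgfr1* and the co-receptor gene *Klb* were not called either. Close to the threshold was *Fgfr1* (adjusted p = 0.0509, edgeR), which was called higher by library size only (0.0344), DESeq2 (0.0321) and a robust fit (0.0482). *Slc9a3r1* (−0.75, adjusted p = 0.00191) and *Pdzk1* (−0.77, adjusted p = 0.0250) were called lower when scaled to the epithelium list, as was *Slc9a3r1* by DESeq2 (−0.39, adjusted p = 0.0446) and *Pdzk1* without KO replicates 1 and 2 (−0.76, adjusted p = 0.00839). By contrast *Ank* was not called by library size only (0.142) or without a filter (0.0572). The entry gene *Slc34a2* was thus called higher and the exporter gene *Xpr1* lower in the same KO libraries, a contrast of single genes that was not tested.

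**Figure D4:**
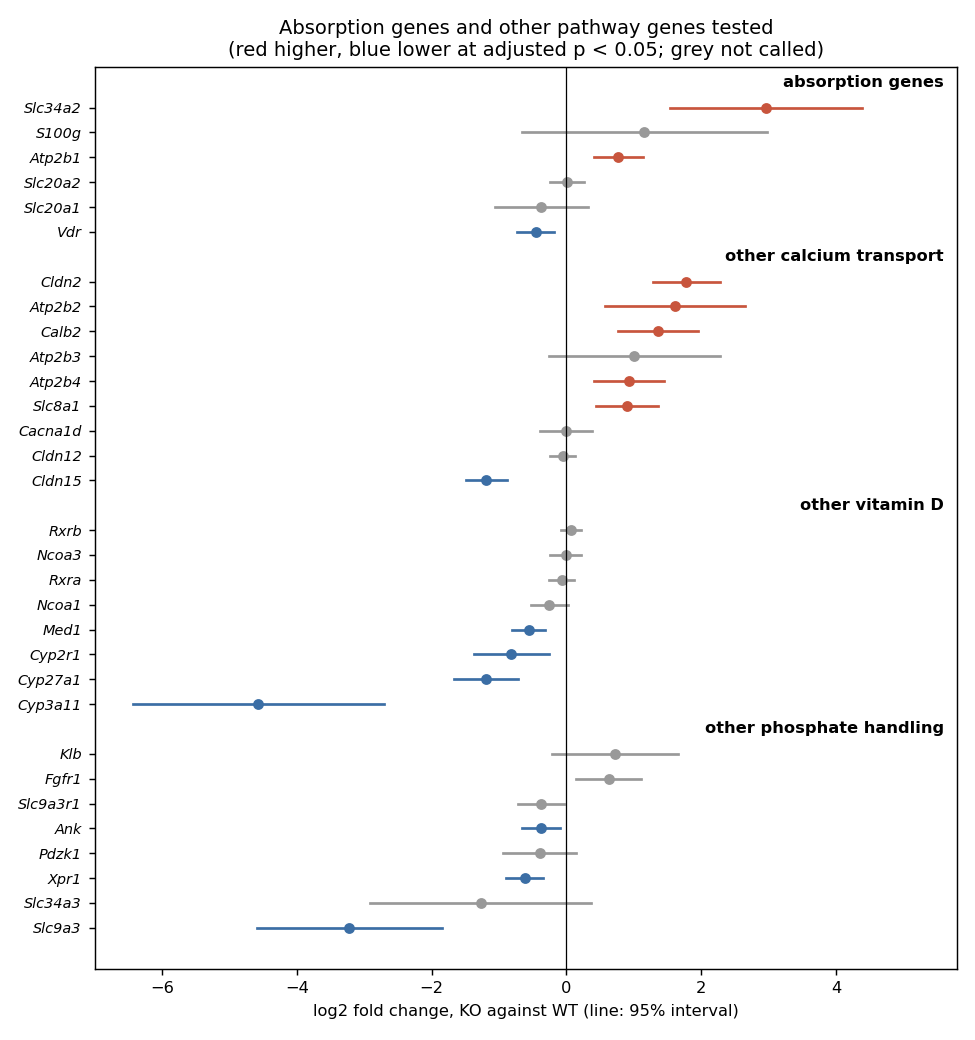
Log2 fold changes of KO against WT with 95% intervals for the 6 tested absorption genes and the tested genes of 3 pathway lists, red for called higher, blue for called lower and grey for not called. *Slc34a2* is the highest at 2.96 and *Cyp3a11* the lowest at −4.57, and the 4 calls of the vitamin D list and the 3 of the phosphate list lie below 0, with the uncalled genes of both lists on either side.

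Genes that varied most like each member were sought among the genes tested, by Pearson's r of the deviations of log2 CPM from the group means over 10 libraries. For *Slc34a2* these were *Rpl27-ps3*, *Ctdsp2* and *Slc52a3*, with r of 0.957, 0.938 and 0.937. For *Vdr* they were *Rcl1*, *Mlx* and *Smpdl3b* at 0.960, 0.957 and 0.953, and for *Atp2b1* they were *Hsd17b7*, *Cep295* and *Xist* at 0.949, 0.915 and 0.907. For *S100g* they were *D17Wsu92e*, *Nr0b2* and *Ptges3l* at 0.954, 0.946 and 0.935. *Slc20a1* varied most like *Traf3ip3*, *Inpp5d* and *Ncf1* at 0.956, 0.950 and 0.949, which are expressed in leukocytes. *Slc20a2* varied most like *3830403N18Rik*, *Arhgap10* and *Ap3b2* at 0.985, 0.983 and 0.965. The values were picked as the highest of 15610 genes over libraries that share depth and tissue make-up, so they describe these libraries only.

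With the mean log2 CPM of the smooth muscle list, the proximal list or the ileum list as a covariate, none of *Slc34a2*, *Atp2b1* and *Vdr* was called. The log2 fold change of *Slc34a2* was 2.17 with the smooth muscle list (adjusted p = 0.446), 1.53 with the proximal list (adjusted p = 0.999) and −4.46 with the ileum list (adjusted p = 0.99996, all edgeR). The smooth muscle, proximal and ileum levels of the groups did not overlap, so these fits hold little that separates genotype from the lists. Left out together, KO replicates 1 and 2, which kept the highest proximal sums of their group, left *Slc34a2* at 2.97, *Atp2b1* at 0.74 and *Vdr* at −0.51, with all 3 called (adjusted p of 0.0155, 0.00612 and 0.0251). The KO libraries that remained had proximal sums of 101 to 167 CPM, further from WT, and calls over all genes rose from 4660 to 5570. This fit therefore cannot separate genotype from gut region either.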

How the data were processed

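RNA came from proximal intestinal segments, and libraries of single mice were made with a SMARTer mRNA-Seq kit and sequenced on a NovaSeq instrument. The authors deposited counts of reads per Ensembl gene, whole numbers without normalization. The submitters' processing notes name FastQC 0.11.9, Trimmomatic, HISAT2 2.0.4, SAMtools 1.3.1, DESeq2 1.14.1 and GRCm38. For the read counter, the annotation and the strand setting the entry is: not given in the sources used here. Thus reads of overlapping genes on opposite strands may be counted for either.

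Symbols and exon lengths came from GENCODE M21 (GRCm38), with 34490 of 35275 IDs matched. In R 4.3.3 with edgeR 4.0.16, the 15610 genes that filterByExpr retained at a minimum count of 10 and a minimum total of 15 were scaled by TMM and tested by the quasi-likelihood test with Benjamini-Hochberg adjustment (threshold 0.05). Single genes were compared by an exact permutation test of mean log2 CPM (prior count 2) over all 252 splits, two-sided. CPM per kilobase is CPM divided by exon length. Counting intervals and floors (3 reads for a library at 0) cover counting error only. Scripts were tested on simulated counts. Alternatives used other scalings, filters, covariates, DESeq2 1.42.0 and each library left out. Same-numbered WT and KO libraries did not deviate together (correlations from −0.167 to 0.177), so numbers were not used as pairs.

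Genes and lists were chosen with earlier results of these data known. Named were the 8 members, *Slc39a14*, every called gene of the 3 pathway lists with up to 4 uncalled ones of highest mean, up to 3 abundant genes of a marker list and the 3 genes most like each tested member. *Gata4*, *Cybrd1*, *Slc40a1*, *Slc10a2*, *Car1*, *Trpv5*, *Slc34a1*, *Slc34a3*, *Rxrg* and the genes on opposite strands were named outside this rule, after their values were seen. Sequences are RefSeq's (GRCm38.p6).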

Additional observations from a re-analysis of the deposited data

Results flagged for a closer look

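In 3 of 16 groups of 5 values 1 library stood apart by Dixon's criterion (gap over range above 0.71), which about 1 group in 20 of normally distributed values exceeds by chance. The criterion was applied to CPM without a log transform, for which the rate was not established. The rate of 1 in 20 does not hold for the *Trpv6* and *Cyp24a1* groups, where any single library with reads among 4 at 0 meets the criterion. *Trpv6* was at 0.117 CPM in WT replicate 3 and at 0 in the other WT libraries, which is a difference of 2 reads. *Cyp24a1* was at 0.191 CPM in KO replicate 4, from 4 reads, and at 0 in the other KO libraries. *Slc20a2* was at 36.4 CPM in KO replicate 4 against at most 28.3 CPM in the other KO libraries. KO replicate 4 also had the highest smooth muscle sum, 9979 CPM, and its part in these values was not tested.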

How the results depend on the processing

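*Slc34a2*, *Atp2b1* and *Vdr* kept direction and call under RLE scaling, library size only, DESeq2, both other filters, a robust fit and with any 1 library left out, and under epithelium scaling all but *Atp2b1* (0.42, not called) did. Left-out libraries gave 3207 to 5507 calls over all genes against 4660 (5507 without KO replicate 1), 3 members throughout and 10 to 16 pathway genes. *Vdr* came nearest to the threshold, with adjusted p up to 0.0479. The replicate block, for numbers that do not pair the samples, gave 3848 calls, 10 of them pathway genes, and changed no member's call, and only 1 library of each group was closest to its own number. Calls split 53.5% higher by TMM, 69.4% by library size only and 12.6% by epithelium scaling (17 pathway genes called against 13), and the other two scalings moved the median of all genes by 0.12 and −0.36.

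Covariates ended the calls. With the smooth muscle list 12 genes were called, with the ileum list 0 (edgeR, 623 at an unadjusted p under 0.05) and with the proximal list 4, and with each of them 0 members and 0 pathway genes. The ileum and proximal covariates and the fit without KO replicates 1 and 2 were chosen after seeing the data. In the order smooth muscle, ileum, proximal, log2 fold changes were 1.04, 1.296 and 0.84 for *Atp2b1*, −0.17, −0.091 and −0.39 for *Vdr* and 2.17, −4.46 and 1.53 for *Slc34a2*. *S100g* reversed with smooth muscle (−1.48), and *Slc20a1* with ileum (0.69) and proximal (0.51).

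*Slc20a2*, at 0.01, changed sign under RLE scaling (−0.0023), DESeq2 (−0.0069), no filter (−0.0148), smooth muscle (−0.32), epithelium scaling (−0.34) and ileum (−0.20), and ranged from −0.0825 to 0.0534 with libraries left out (difference of mean log2 CPM −0.0794 to 0.049). Relative to the median of all genes, a step that takes out the shift between scalings, *Slc20a2* stayed between −0.02 and −0.01 by TMM, RLE, library size and epithelium scaling. That difference for *Cyp24a1* was −0.049 with a prior count of 0.5 and −0.24 to 0.14 with libraries left out. The causes were not tested. A Y-linked covariate was not run, since those genes had 0.0638 CPM or less in every library. *Trpv6* and *Cyp24a1*, at 2 to 20 reads per group, were measured with low precision.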
